A study of Mus musculus with 48 samples.

Results

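The 10 genes described here are the immediate early genes Fos, Fosb, Jun, Junb, Egr1, Dusp1, Atf3, Ier2, Nr4a1 and Zfp36, followed in RNA of 48 B16-D5 melanomas from mice. They are 10 of the 55450 genes in the count table, a named list that was chosen by the p-value of Dusp1, which was among the lowest of all genes at 6 h between anti-PD-1 and untreated tumors. No fixed threshold came with that choice. That contrast is therefore given as a description only, and Dusp1 has no test in any comparison that uses the same 6 h tumors.

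Immediate early genes are transcribed within minutes of a signal, without new protein synthesis, when growth factors, cytokines or stress activate MAP kinases and the transcription factors SRF and CREB. Fos, Fosb, Jun and Junb encode subunits of AP-1, Atf3 a related factor of the CREB/ATF family, Egr1 a zinc finger activator, and Nr4a1 an orphan nuclear receptor known as Nur77. Dusp1 and Zfp36 encode inhibitors, a phosphatase that switches MAP kinases off and tristetraprolin, which promotes decay of mRNAs with AU-rich elements. Ier2 encodes a small nuclear protein. In tumors these genes are active in malignant cells as well as in macrophages, fibroblasts and endothelium.

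Promoter sequence in RefSeq (GRCm38.p6), from 250 bases before to 50 bases after the start, was at hand for 8 of the 10 genes. The stretches below are shown because CREB and related factors are textbook regulators of this class and because these genes vary together among tumors. Each runs 5′ to 3′ from position -200 to the base before the start, and for Dusp1 to position -48, since the bases after it lie in an annotated exon. Capitals mark TGACGTCA (the CREB site, CRE), its core TGACG on either strand, the variant TGACATCA and the TATA box TATAAA.
Fos, chr12:85473690-85473889, strand +: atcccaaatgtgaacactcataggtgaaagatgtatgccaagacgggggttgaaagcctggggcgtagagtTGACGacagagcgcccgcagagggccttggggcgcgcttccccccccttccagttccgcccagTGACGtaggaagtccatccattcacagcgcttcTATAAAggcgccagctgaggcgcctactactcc
Jun, chr4:95052223-95052422, strand -: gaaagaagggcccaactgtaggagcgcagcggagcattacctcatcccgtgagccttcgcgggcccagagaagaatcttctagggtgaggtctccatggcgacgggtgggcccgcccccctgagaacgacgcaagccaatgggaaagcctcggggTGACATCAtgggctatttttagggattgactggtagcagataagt
Junb, chr8:84978749-84978948, strand -: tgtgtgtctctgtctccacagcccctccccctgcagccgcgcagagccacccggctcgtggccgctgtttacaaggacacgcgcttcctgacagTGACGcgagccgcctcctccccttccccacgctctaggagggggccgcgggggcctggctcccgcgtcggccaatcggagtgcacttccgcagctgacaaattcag
Dusp1, chr17:26508520-26508672, strand -: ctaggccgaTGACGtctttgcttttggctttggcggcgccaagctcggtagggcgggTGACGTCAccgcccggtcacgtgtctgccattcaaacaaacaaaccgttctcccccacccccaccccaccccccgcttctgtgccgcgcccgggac
Nr4a1, chr15:101266646-101266845, strand +: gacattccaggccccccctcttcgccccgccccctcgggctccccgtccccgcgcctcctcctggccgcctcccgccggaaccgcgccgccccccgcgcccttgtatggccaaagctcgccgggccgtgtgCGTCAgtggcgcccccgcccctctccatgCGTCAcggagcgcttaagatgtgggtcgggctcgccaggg
In GENCODE vM21 the stretches of Fos, Jun and Junb lie upstream of the gene, and those of Dusp1 and Nr4a1 lie in an intron of a longer transcript. The full CRE was found on 1 of the 8 promoters, that of Dusp1 at position -143, and on 1.8% of the 32544 promoters in the table. The core TGACG, which every full CRE also contains, was present on either strand in 6 of the 8 (Fos, Fosb, Junb, Dusp1, Atf3 and Nr4a1) and in 20.9% of all promoters. Fos held it at positions -129 and -66, and Nr4a1 held it 4 times, at -233, -213, -69 and -40. The variant TGACATCA was found in Jun, at -45, and in 3.37% of all promoters. A CArG box, the site of SRF, was found in Zfp36 at -58 and in 1.64% of all promoters. TATAAA was found in Fos at -33 and in Junb at the RefSeq start itself, and in 13.6% of all promoters, and neither TGANTCA (7.79% of promoters) nor GCGTGGGCG (0.618%) was found in any of the 8. In GENCODE vM21 the Junb gene begins further downstream, at chr8:84978718, so the position of its TATAAA depends on the annotation. A site pattern of the factor NF-kB, not marked above, was found in 3 of the 8 (Fos, Fosb and Nr4a1) and in 8.49% of all promoters. These matches describe letters in a window and say nothing on binding.

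All mice carried subcutaneous B16-D5 tumors, grown from a subclone of the B16 line, and the mice were C57BL/6J (WT) or iNOS KO, bought aged 4 weeks and kept 2 weeks before use. Tumor cells were given 8 days before therapy, which was 250 µg of IgG or anti-PD-1 on days 0 and 3, and control mice had no treatment. The time course held 30 tumors of WT mice, untreated at 0 h and untreated, IgG or anti-PD-1 at 6 h, day 1 and day 3, and the later experiment held 18 tumors of WT and KO mice under the same 3 treatments at day 7. Each of the 16 conditions had 3 tumors, 1 library each, and each experiment was normalized on its own. Conditions follow the sample titles, because the treatment field of the labels matched the title in 14 of 48 samples and the genotype field in 39 of 48. The 6 h tumors are titled D0, and their time comes from the design text of the series. The time of the later experiment, day 7, comes from the paper's description of it and not from the titles.

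Libraries held 25574203 to 47687872 counts on genes in the time course and 11625862 to 40959309 at day 7. All 7 melanoma markers were detected in every tumor, with a summed level of 9306 to 20436 CPM (counts scaled to 1000000 per library) in the time course and 9575 to 18687 CPM at day 7. The targeted gene Nos2, which encodes iNOS, had a median of 3.28 CPM in the 9 WT tumors of day 7 (range 1.40 to 7.28) and of 4.21 CPM in the 9 KO tumors (range 1.15 to 5.92), so its gene-level count did not separate the genotypes. A gene-level count does not show whether the remaining reads come from undeleted exons or from the tumor cells, so the KO libraries are KO by label. At day 7, 3 libraries stood apart and carried 918 to 3718 CPM on the 1506 olfactory, vomeronasal and taste receptor genes against at most 233 CPM in the other day 7 libraries. They were replicates 3 and 4 of anti-PD-1 in WT mice (3718 and 1308 CPM) and replicate 1 of untreated KO mice (918 CPM), and day 7 values are given with and without them where they matter.

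All 10 genes passed the filter on low counts in both experiments, with at least 39 counts in every library. Per kilobase of exon, Nr4a1 had the highest median level of the 10 in the time course, 52.8 CPM per kb. It was followed by Ier2 (15.997), Jun (15.5), Zfp36 (13.8), Dusp1 (11.3), Junb (11.2), Egr1 (7.44), Atf3 (5.45), Fos (4.59) and Fosb (1.14 CPM per kb). At day 7 Nr4a1 was again highest (45.4 CPM per kb) and Fosb lowest (0.982 CPM per kb). Jun shares 7.28% of its exon bases with the antisense gene Junos, Junb 7.52% with Prdx2 and Zfp36 3.6% with Gm44710, all on the opposite strand, and the use of strand in the counting is not given in the sources used here.

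**Figure D1:**
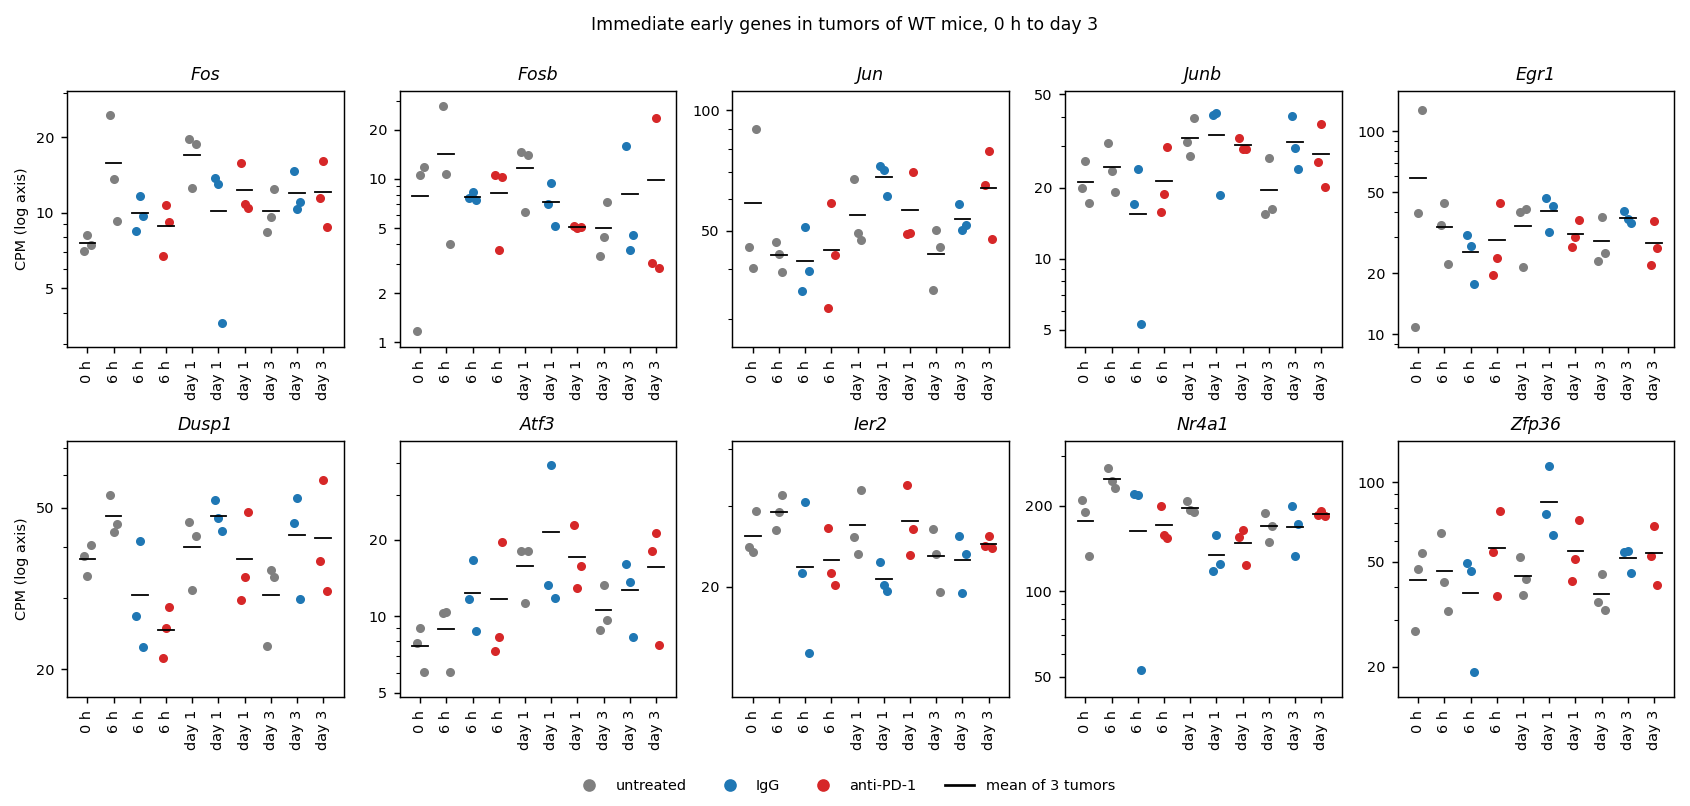
Level of each gene in the 30 time-course tumors in CPM on a log axis, 1 point per tumor, with the mean of the 3 tumors of each condition as a line. Conditions run from 0 h to day 3. The lowest Junb, Ier2, Nr4a1 and Zfp36 values belong to 1 tumor, IgG at 6 h replicate 6.

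The spread among tumors of 1 condition was wide for some genes and narrow for others. Fosb ranged 23.7-fold over the time course, from 1.17 CPM in untreated 0 h replicate 1 to 27.7 CPM in untreated 6 h replicate 1. Egr1 ranged 11.7-fold, and both its extremes came from untreated 0 h tumors, 10.8 CPM in replicate 1, 39.8 CPM in replicate 2 and 126.9 CPM in replicate 3. Replicate 3 also had the highest summed keratinocyte markers of the 30 (3704 CPM against a median of 2.32 CPM) and the highest fibroblast markers (9267 CPM), and the part of these cells in its Egr1 level was not tested. Ier2 and Dusp1 had the narrowest ranges, 2.32-fold and 2.74-fold. Among the 15109 genes of at least 1 CPM, the SD of log2 CPM within conditions placed Fosb at the 95.7th percentile, Egr1 at the 86.4th and Ier2 at the 27.7th. At day 7 the same measure placed Egr1 at the 92.4th percentile of 15899 genes, Fosb at the 90.1th and Ier2 at the 11.3th.

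When the 10 conditions of the time course were ordered by their mean, the tumors of neighbouring conditions failed to overlap in 1 of the 90 neighbouring pairs over the 10 genes, which was Nr4a1 in untreated tumors, higher at 6 h than at day 1. The highest condition mean exceeded the lowest 2.83-fold for Fosb, 2.81-fold for Atf3 and 2.34-fold for Egr1, but 1.40-fold for Ier2. Differences between conditions made up from 13.8% (Egr1) to 46.3% (Junb) of the variance in log2 CPM for the 9 genes other than Dusp1. The median over all genes was 31.6%. In the edgeR test of any difference among the 7 conditions outside 6 h, 0 of the 10 genes passed at an adjusted p-value of 0.05, against 0.168% of the 26848 genes tested, and 1 of them, Zfp36, had an unadjusted p-value under 0.05, as did 5.44% of all genes. Zfp36 had an adjusted p = 0.810 in that test, but 0.0357 with DESeq2, where 1.89% of genes passed, and 0.0246 without the filter on low counts, where 2.13% passed.

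Over all comparisons with a test, 0 of 207 tests of single genes passed with edgeR, and 12 had an unadjusted p-value under 0.05. DESeq2 called 2 of the 207 and edgeR without the filter on low counts called 4, while DESeq2's size factors, the fit of only the groups compared and the sensory covariate called 0. The 12 values were Zfp36 on day 1 for IgG against untreated (5.43% of all genes had such a p-value there), Jun on day 3 for anti-PD-1 against untreated (2.63%), and in untreated tumors Fos at 6 h (6.92%), Fos and Atf3 at day 1 (6.85%) and Egr1 at day 3 (6.89%), each against 0 h. At day 7 they were Zfp36 for anti-PD-1 against IgG in WT mice (16.3%), Ier2 and Nr4a1 for anti-PD-1 against untreated in KO mice (17.3%), Nr4a1 for IgG against untreated in KO mice (15.6%), and Ier2 and Nr4a1 for KO against WT after anti-PD-1 (32.3%). The other comparisons had none, with shares over all genes of 4.38% and 5.42% at 6 h for anti-PD-1 against IgG and IgG against untreated, of 2.14% on day 3 for anti-PD-1 against IgG, and of 1.94% to 31.9% in the rest. At 6 h for anti-PD-1 against untreated, from which nothing is read, the share was 3.3%.

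At 6 h, Dusp1 was lower in anti-PD-1 tumors, as the way the list was chosen implies. Its level after anti-PD-1 was 21.3, 25.2 and 28.5 CPM, that after IgG was 27.01, 41.5 and 22.7 CPM, and that without treatment was 53.7, 43.4 and 45.5 CPM. Both treated groups lay entirely below the untreated tumors, whereas the anti-PD-1 and IgG values overlapped. The log2 fold change of Dusp1 against untreated tumors was -0.93 for anti-PD-1 (SE 0.25) and -0.65 for IgG (SE 0.25), with no test since the choice of the list used these tumors. Between anti-PD-1 and IgG it was -0.28 (SE 0.25), and 0.08 without IgG replicate 2. At 0 h the levels of Dusp1 were 38.01, 33.98 and 40.3 CPM, below those of the untreated 6 h tumors. This is a description only, since the untreated 6 h tumors are among those by which Dusp1 was chosen.

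Nr4a1 was also higher in untreated tumors than in both treated groups at 6 h, with 232 to 272 CPM in untreated tumors and 155 to 201 CPM in anti-PD-1 tumors. In the IgG tumors it was 220, 218 and 53.0 CPM, and the last of these, replicate 6, was the lowest of all 30. The AP-1 genes Fos and Fosb had their highest tumor of the time course among the untreated ones at 6 h, replicate 1, with 24.6 CPM for Fos and 27.7 CPM for Fosb. Across the 10 genes the median log2 fold change of anti-PD-1 against untreated was -0.28, with 7 below 0. Over all genes the median was -0.02. The medians and counts below 0 in this and the next comparison include Dusp1, by which the list was chosen, and are a description only. Nr4a1 was the 1 gene of the 9 other than Dusp1 without overlap, downwards, beside 2.93% of all genes (2.67% upwards). For IgG against untreated the median was -0.51, with 9 below 0, and Nr4a1 was the 1 gene of the 9 other than Dusp1 without overlap, downwards, beside 2.31% of all genes (5.87% upwards). These comparisons share the untreated tumors. For IgG against untreated, 0 of the 9 genes tested passed, as did 0% of all genes. Fosb had the largest value there, -0.86 (SE 0.76, edgeR adjusted p = 0.861), and it became 0.08 without untreated replicate 1.

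Anti-PD-1 and IgG tumors at 6 h overlapped in all 10 genes. The median log2 fold change was 0.07, 7 of 10 values were above 0, no gene was without overlap (2.13% of all genes upwards and 5.57% downwards), and 0 of the 9 genes tested passed, as did 0% of all genes. Zfp36 had the largest value, 0.56 (95% interval -0.12 to 1.24, edgeR adjusted p = 0.967). Its levels were 54.3, 36.9 and 77.5 CPM after anti-PD-1 and 49.3, 46.1 and 19.2 CPM after IgG. The low tumor, IgG replicate 6, was also the lowest of the 30 for Junb (5.27 CPM), Ier2 (14.4 CPM) and Nr4a1. It had the fewest counts of the 30 libraries (25574203), and its sensory receptor counts, 256 CPM, were the highest of the 6 h libraries. Its melanoma (12591 CPM), fibroblast (4115 CPM) and macrophage markers (395 CPM) lay inside the range of the other tumors, and the part of depth and composition in these values was not tested.

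In untreated mice Fos was low at 0 h and higher afterwards. Its level was 7.04, 8.16 and 7.48 CPM at 0 h, 24.6, 13.6 and 9.24 CPM at 6 h, 19.7, 12.5 and 18.9 CPM at day 1 and 8.36, 9.63 and 12.5 CPM at day 3. The 0 h tumors lay below every later untreated tumor, but the differences did not pass the test, with log2 fold changes of 1.06 at 6 h (SE 0.37, edgeR adjusted p = 0.554), 1.17 at day 1 (SE 0.37, edgeR adjusted p = 0.431) and 0.42 at day 3 (SE 0.37, edgeR adjusted p = 0.933). Over the alternatives tried, the adjusted p-value at day 1 lay between 0.0980 and 0.934. Atf3, a stress-induced repressor, was 7.87, 8.99 and 6.01 CPM at 0 h and 18.1, 11.3 and 17.96 CPM at day 1, also without overlap, with a log2 fold change of 1.05 (SE 0.44, edgeR adjusted p = 0.675).

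Leaving Dusp1 aside at 6 h, Fos and Nr4a1 were without overlap above 0 h at 6 h, Fos, Junb and Atf3 at day 1, and Fos at day 3, against 1.89%, 3.77% and 3.4% of all genes in that direction. None of these comparisons had a call among the genes tested, as with 0% of all genes. The 0 h group held the tumor with high keratinocyte and fibroblast markers. Skeletal muscle markers summed to 839 to 6037 CPM in the 3 tumors at 0 h. In untreated tumors they were 49.7 to 983 CPM at 6 h, 4.06 to 26.4 CPM at day 1 and 5.39 to 653 CPM at day 3. The part of these tissues in the differences from 0 h was not tested. Egr1 had the largest value at day 3, -1.05 (SE 0.49, edgeR adjusted p = 0.699), and it turned to 0.21 without 0 h replicate 3. The median of the 10 genes was 0.22 at 6 h, 0.12 at day 1 and -0.16 at day 3.

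On day 1, Zfp36 was highest after IgG, with 75.4, 114.7 and 63.2 CPM, against 51.99, 37.6 and 43.04 CPM in untreated tumors and 42.2, 51.3 and 71.7 CPM after anti-PD-1. IgG and untreated tumors did not overlap, and the log2 fold change was 0.93 (SE 0.33, edgeR adjusted p = 0.859, between 0.0969 and 1 over the alternatives). In the same IgG and untreated tumors, leukocyte markers summed to 381 to 484 CPM and 126 to 290 CPM and neutrophil markers to 10.9 to 16.8 CPM and 5.06 to 7.82 CPM, both without overlap. Fibroblast markers, in the order of the Zfp36 values, summed to 8488, 2779 and 8614 CPM after IgG and 5965, 2333 and 3758 CPM in untreated tumors, so the IgG tumor with the most Zfp36 had the least of them. Macrophage markers summed to 556 to 1140 CPM and 397 to 805 CPM, and the part of these cells in the Zfp36 values was not tested. In bulk tumor RNA, more cells of a type and more RNA per cell cannot be told apart. Ier2 and Nr4a1 lay below the untreated tumors after IgG, so that 1 gene was without overlap upwards and 2 downwards, against 6.26% and 6.36% of all genes. The IgG tumors themselves varied, with Atf3 at 13.3, 39.1 and 11.8 CPM and Fos at 13.7, 13.03 and 3.65 CPM. Without IgG replicate 4, the tumor with the highest Junb, Atf3 and Zfp36 of the time course, the median of the 10 genes against untreated tumors moved from 0.14 to -0.20, and without untreated replicate 3 it was -0.02.

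Anti-PD-1 tumors of day 1 had Fosb at 5.16, 4.99 and 5.11 CPM, below the untreated 14.6, 6.26 and 13.998 CPM. The log2 fold change was -1.19 (SE 0.77, edgeR adjusted p = 1), and Fosb and Nr4a1 were the 2 genes without overlap downwards, against 2.6% of all genes. Against IgG, Ier2 was without overlap upwards (23.5 to 33.3 CPM against 19.5 to 22.7 CPM), beside 2.77% of all genes upwards and 3.72% downwards, and Zfp36 had the largest value, -0.62 (SE 0.33, edgeR adjusted p = 1). The medians of the 10 genes were -0.10 against untreated and -0.30 against IgG. In the 3 day 1 comparisons 0 of 10 genes passed, as did 0% of all genes.

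On day 3, 9 of the 10 genes had a value above 0 for anti-PD-1 against untreated and the median was 0.49, beside -0.02 over all genes. Every gene overlapped (3.52% of all genes did not, upwards, and 3.43% downwards), and 0 of 10 passed, as did 0% of all genes. Jun was 65.1, 79.1 and 47.71 CPM after anti-PD-1 and 35.5, 50.1 and 45.5 CPM in untreated tumors, a log2 fold change of 0.55 (SE 0.25, edgeR adjusted p = 1). Fosb had the largest value, 0.98 (SE 0.76, edgeR adjusted p = 1), which rested on replicate 4 at 23.7 CPM against 3.06 and 2.84 CPM in the other anti-PD-1 tumors, and it was -0.73 without that tumor. Replicate 4 also held 7407 CPM of fibroblast markers against 2169 and 2291 CPM in the other 2, and only 12.8 CPM of endothelial markers, the lowest of the 30, and the part of these cells was not tested.

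IgG tumors of day 3, set against the same untreated tumors, had a median of 0.34, and Jun and Zfp36 were without overlap upwards, against 6.53% of all genes. Fosb was again largest, 0.69 (SE 0.76, edgeR adjusted p = 1), and -0.28 without IgG replicate 2. Between anti-PD-1 and IgG the median was 0.09, and Egr1 had the largest value, -0.41 (SE 0.48, edgeR adjusted p = 1), with no gene of the 10 without overlap beside 3.5% of all genes upwards and 4.83% downwards. None of the 10 genes passed in either comparison, as with 0% of all genes.

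**Figure D2:**
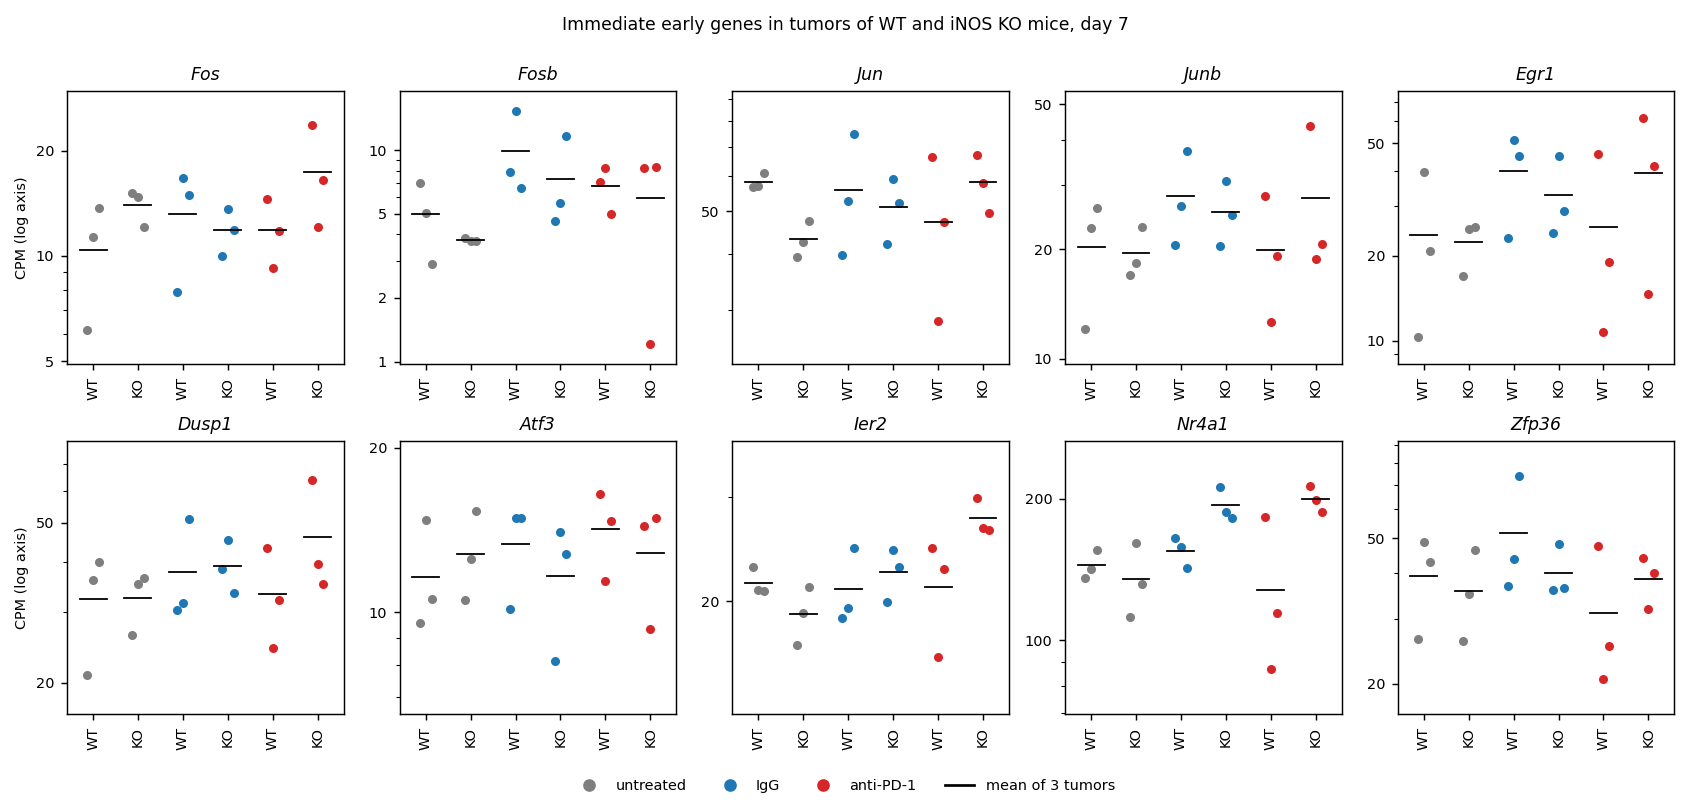
Level of each gene in the 18 day 7 tumors in CPM on a log axis, 1 point per tumor, with the mean of the 3 tumors of each condition as a line. Nr4a1 lies at 182 CPM or above in all KO tumors given IgG or anti-PD-1, and anti-PD-1 in WT mice has the widest Nr4a1 spread, 86.8 to 182 CPM.

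At day 7, neighbouring conditions in the order of their means failed to overlap in 2 of 50 pairs over the 10 genes, which were Ier2 in KO tumors, higher after anti-PD-1 than after IgG, and Nr4a1 after IgG, higher in KO than in WT mice. The median log2 fold change over all genes tested was not near 0 in most day 7 comparisons and ran from -0.91 to 0.96, so the values of the 10 genes are given beside it. A distance from that median was not particular to the 10 genes, as the list of genes upstream of them, given below, also lay apart from it. Among the 6 conditions 0 of 10 genes passed the edgeR test of any difference, against 1.66% of all genes. Of these, 1 gene, Nr4a1, had an unadjusted p-value under 0.05, as did 28.2% of all genes. Its edgeR adjusted p was the lowest of the 10 (0.145), and DESeq2 called it (adjusted p = 0.0143, with 16.5% of genes called). Without the filter, where 14.4% of genes passed, Fosb (adjusted p = 0.0126) and Egr1 (adjusted p = 0.000976) were called instead. Differences between conditions made up 60.4% of the variance of Nr4a1, 53.6% of that of Ier2 and 13.6% of that of Atf3, with a median of 44.1% over all genes.

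In WT mice, Zfp36 was 47.5, 20.6 and 25.3 CPM after anti-PD-1 (replicates 2, 3 and 4) and 36.9, 43.7 and 73.8 CPM after IgG. The log2 fold change was -0.72 (SE 0.31, edgeR adjusted p = 0.305), with a median of -0.26 for the 10 genes and of 0.68 for all genes. The 2 low tumors were the ones with high sensory receptor counts. Without replicate 2 the value was -1.17 and passed (edgeR adjusted p = 0.0209, with 5.96% of genes called), and without the filter it was -0.78 (edgeR adjusted p = 0.0392, with 1.92% called). It was -0.39 without IgG replicate 3, -0.44 without anti-PD-1 replicate 3, -0.50 with the sensory covariate and -0.11 without the 3 sensory-rich libraries. Without the 3 sensory-rich libraries only replicate 2 of the anti-PD-1 group remained, and the median of the 10 genes turned to 0.20. Summed fibroblast markers were 4528, 370 and 756 CPM after anti-PD-1 and 3012, 4138 and 7559 CPM after IgG, and the part of these cells was not tested. All 10 genes overlapped between the groups (9.02% of all genes did not, upwards, and 2.85% downwards), and 0 passed, as did 0% of all genes.

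Against untreated WT tumors, the median of the 10 genes was 0.01 after anti-PD-1 and 0.28 after IgG. Fosb had the largest value in both, 0.44 after anti-PD-1 (SE 0.52, edgeR adjusted p = 0.530) and 0.99 after IgG (SE 0.52, edgeR adjusted p = 0.565). Fosb was 7.84, 15.3 and 6.62 CPM after IgG and 6.98, 5.04 and 2.89 CPM in untreated tumors, with overlap. The median after anti-PD-1 was 0.41 without the 3 sensory-rich libraries. In these comparisons 0 of 10 genes passed, as did 0% of all genes, and 0 were without overlap, beside 16.3% of all genes upwards and 7.61% downwards after anti-PD-1 and 6.79% and 6.05% after IgG.

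In KO mice the 10 genes all had values above 0 for anti-PD-1 against untreated, with a median of 0.50 beside -0.44 over all genes, and 9 of 10 were above 0 with DESeq2 size factors. Ier2 was 29.8, 26.6 and 26.3 CPM after anti-PD-1 and 16.9, 19.1 and 21.1 CPM in untreated tumors, a log2 fold change of 0.53 (SE 0.17, edgeR adjusted p = 0.270). Nr4a1 was 212, 199 and 188 CPM after anti-PD-1 and 112, 161 and 132 CPM in untreated tumors, a log2 fold change of 0.57 (SE 0.21, edgeR adjusted p = 0.283). Jun was without overlap as well, so that 3 of 10 genes lay above the untreated tumors, against 5.56% of all genes. None of the 10 passed, while 0.0422% of all genes did. DESeq2 called Ier2 (0.48, adjusted p = 0.0372, with 3.53% of genes called), and the fit without a filter called Egr1 (0.85, edgeR adjusted p = 0.0164, with 2.84% called).

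Egr1 had the largest value of that comparison, 0.81 (SE 0.51, edgeR adjusted p = 0.333), with 61.6, 14.6 and 41.6 CPM after anti-PD-1 and 16.95, 24.97 and 25.3 CPM in untreated tumors. The order of the 3 anti-PD-1 tumors in Egr1 was that of their fibroblast markers, 3903, 737 and 2433 CPM, whereas untreated KO tumors held 637 to 865 CPM. Their macrophage markers had the same order, 504, 135 and 489 CPM, with 246 to 352 CPM in untreated KO tumors. The part of these cells in the Egr1 values was not tested. With the sensory receptor counts as a covariate the median of the 10 genes was 0.14 and 8 of 10 values were above 0, and without the 3 sensory-rich libraries the median was 0.41.

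IgG against untreated in KO mice had a median of 0.25 beside -0.45 over all genes, and Fosb and Nr4a1 were without overlap upwards, against 8.02% of all genes. Fosb had the largest value, 0.96 (SE 0.52, edgeR adjusted p = 0.315), and 0 of 10 genes passed against 0.188% of all genes. With the sensory covariate the median was -0.02. Between anti-PD-1 and IgG in KO mice the median was 0.16, Fos had the largest value, 0.56 (SE 0.30, edgeR adjusted p = 1), and Ier2 was without overlap upwards, against 3.32% of all genes. No gene of the 10 passed, as with 0% of all genes.

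After anti-PD-1, Nr4a1 was higher in every KO tumor (188 to 212 CPM) than in every WT tumor (182, 86.8 and 114 CPM), and so was Ier2 (26.3 to 29.8 CPM against 16.1 to 24.6 CPM). The KO against WT log2 fold change was 0.64 for Nr4a1 (SE 0.21, edgeR adjusted p = 0.128) and 0.38 for Ier2 (SE 0.17, edgeR adjusted p = 0.147). These 2 of 10 genes were without overlap upwards, against 5.33% of all genes, and 0 of 10 passed, as did 0% of all genes. The median of the 10 genes was 0.42 beside -0.91 over all genes. DESeq2 called Nr4a1 (0.57, adjusted p = 0.0205), as did the fit without WT anti-PD-1 replicate 2 (1.03, edgeR adjusted p = 0.0139) and that without a filter (0.74, edgeR adjusted p = 0.0486), with 3043 of 26027, 4959 of 38079 and 2829 of 51257 genes called. The fit without a filter also called Egr1 (0.71, edgeR adjusted p = 0.0472).

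The genotype difference after anti-PD-1 moved with the sensory-rich libraries, which are 2 of the 3 WT tumors. With sensory receptor counts as a covariate, Nr4a1 had a value of -0.0017 (edgeR adjusted p = 1), 2 of 10 values were above 0 and the median was -0.03. Without the 3 libraries the median was -0.06, with 5 of 10 values above 0. WT replicate 2, the tumor without that signal, had 182 CPM of Nr4a1 and 24.6 CPM of Ier2, close below the KO tumors.

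Untreated tumors of KO and WT mice had a median difference of -0.09, with 3 of 10 values above 0, beside 0.49 over all genes. The median was 0.26 with the sensory covariate and 0.04 without the 3 sensory-rich libraries, with 7 of 10 values above 0 in each. Jun was 39.5, 42.7 and 47.6 CPM in KO and 56.9, 57.2 and 61.1 CPM in WT tumors, the only gene without overlap downwards, against 8% of all genes, with a log2 fold change of -0.43 (SE 0.25, edgeR adjusted p = 0.309). No gene of the 10 passed, against 0.587% of all genes. After IgG, the median was -0.15, Nr4a1 was without overlap upwards (182 to 211 CPM in KO against 142 to 165 CPM in WT, beside 5.7% of all genes), and its log2 fold change was 0.32 (SE 0.21, edgeR adjusted p = 0.631). Fosb had the largest value, -0.44 (SE 0.51, edgeR adjusted p = 0.834), and 0.05 without WT replicate 2. No gene of the 10 passed, as with 0% of all genes.

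The effect of anti-PD-1 against IgG was compared between genotypes as an interaction. All 10 genes had a value above 0, with a median of 0.42 beside -0.47 over all genes (9 of 10 above 0 with DESeq2 size factors), and 0 passed, as did 0% of all genes. Egr1 had the largest value, 0.91 (SE 0.72, edgeR adjusted p = 0.769), which was 0.44 without KO anti-PD-1 replicate 1, 1.70 without WT anti-PD-1 replicate 2, 0.50 without WT anti-PD-1 replicate 3, 0.59 with the sensory covariate and 0.055 without the 3 sensory-rich libraries. Without the 3 sensory-rich libraries the median was 0.05, with 7 of 10 values above 0, and over single libraries left out it ranged from 0.25 to 0.72.

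**Figure D3:**
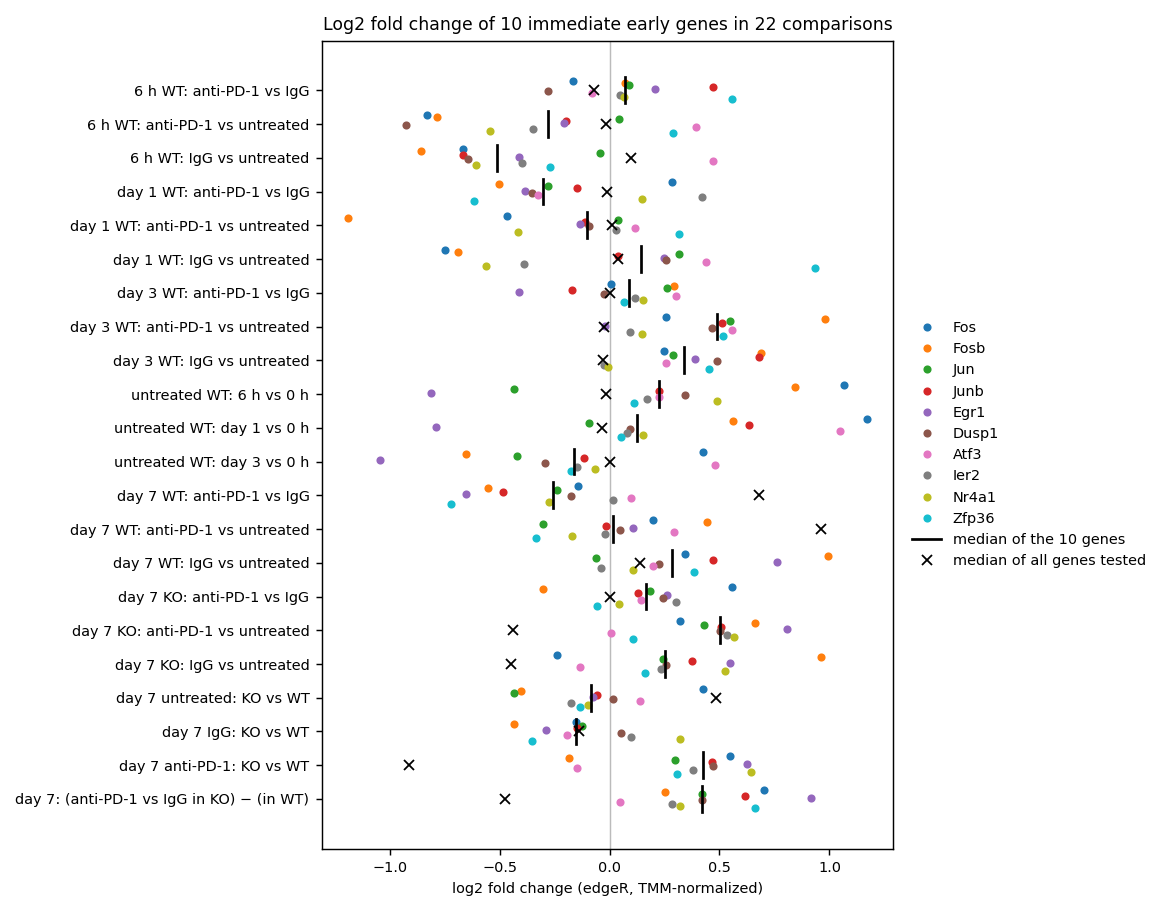
Log2 fold change of each gene (coloured points) in the 22 comparisons, with the median of the 10 genes (bar) and of all genes tested (cross). The crosses sit near 0 in the time course and between -0.91 and 0.96 at day 7, where every point of the 10 genes lies within 1 of 0.

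The 10 genes varied together among tumors of the same condition. After subtraction of the condition means of log2(CPM + 0.5), the median correlation over the 45 pairs of genes was 0.394 in the 30 time-course tumors and 0.614 in the 18 day 7 tumors. It was above 0 in 43 and 40 of the pairs. Over all pairs of the 14795 genes of at least 1 CPM the median was 0.026 and 0.045. These correlations are descriptive, since genes measured in the same libraries share depth and tissue composition. In the time course Junb and Atf3 were the closest pair (r = 0.719), and at day 7 Junb and Dusp1 (r = 0.932), followed by Jun and Ier2 (r = 0.924).

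Zfp36 followed the mean of the other 9 genes most closely in the time course (r = 0.812, rho = 0.779), ahead of Junb (r = 0.751). At day 7 Egr1 came closest (r = 0.935, rho = 0.917), and Junb (0.881), Atf3 (0.830) and Zfp36 (0.823) were near it. Nr4a1 followed the others least in the time course (r = 0.257, rho = 0.0941) and Fosb least at day 7 (r = 0.130, rho = -0.0114). IgG at 6 h replicate 6 weighed on the time course, where the median over pairs was 0.316 without it and the lowest pair went from -0.171 to -0.577. Without the 3 sensory-rich libraries the day 7 median was 0.529.

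**Figure D4:**
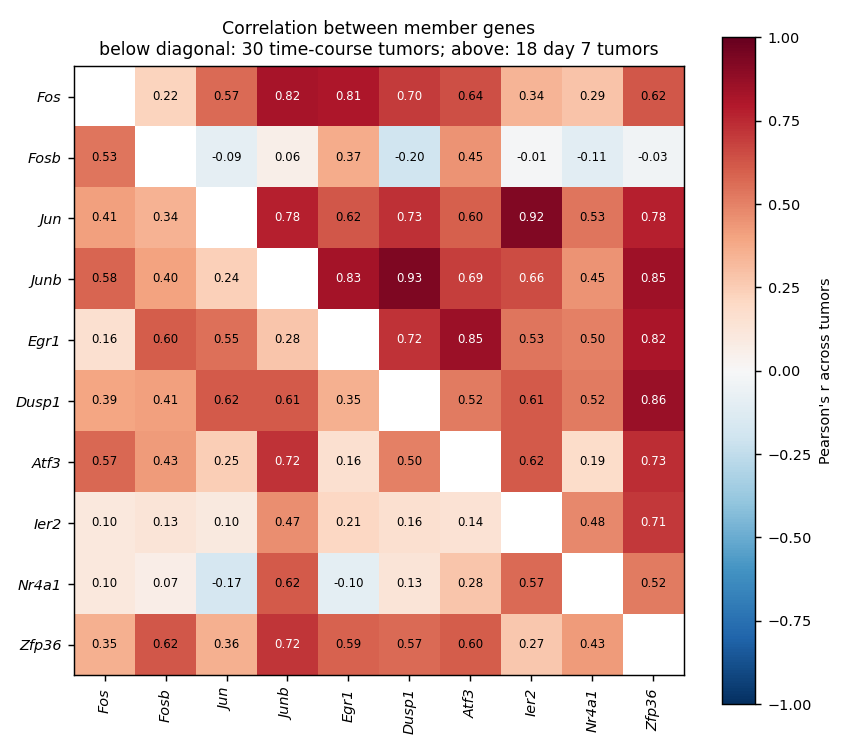
Pearson's r between the 10 genes after subtraction of condition means, with the 30 time-course tumors below the diagonal and the 18 day 7 tumors above it. Most squares are positive, and the row and column of Fosb at day 7 stand out as pale. In the time course many squares of Ier2 and Nr4a1 are pale, though that of Nr4a1 with Junb is not (r = 0.617).

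Several of the genes had their highest or lowest level in the same tumor. At day 7, KO anti-PD-1 replicate 1 was the highest of 18 for Fos (23.7 CPM), Junb (43.6 CPM), Egr1 (61.6 CPM), Dusp1 (63.9 CPM), Ier2 (29.8 CPM) and Nr4a1 (212 CPM). WT anti-PD-1 replicate 3, the library with the fewest counts and the most sensory receptor counts, was lowest for Jun (28.2 CPM), Ier2 (16.1 CPM), Nr4a1 (86.8 CPM) and Zfp36 (20.6 CPM). Untreated WT replicate 1 was lowest for Fos (6.13 CPM), Junb (12.1 CPM), Egr1 (10.3 CPM) and Dusp1 (20.9 CPM).

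Markers of some other cell types, though not of all, moved with the mean of the 10 genes. At day 7 its correlation within conditions was r = 0.937 (rho = 0.930) with the summed fibroblast markers, 0.898 (rho = 0.903) with macrophage markers, 0.840 (rho = 0.872) with leukocyte markers and 0.744 (rho = 0.732) with endothelial markers over the 18 tumors. Without the 2 tumors farthest from the median of the marker sum, these were 0.932, 0.883, 0.824 and 0.604. In the time course the same mean had r = 0.641 (rho = 0.669) with leukocyte markers, 0.490 (rho = 0.495) with macrophage markers and 0.446 (rho = 0.449) with fibroblast markers over 30 tumors, but -0.506 (rho = -0.475) with melanoma markers and -0.440 (rho = -0.325) with endothelial markers. Without the 2 farthest tumors these were 0.667, 0.608, 0.388, -0.389 and -0.251. The share of mitochondrially encoded counts had r = -0.386 (rho = -0.462, and r = -0.536 without the 2 farthest) in the time course and -0.350 (rho = -0.406, and r = -0.377) at day 7. T cell markers had r = -0.0244 in the time course and -0.0831 at day 7. Melanoma markers, at -0.506 in the time course, had r = 0.158 at day 7. In the time course and at day 7, r was 0.221 and 0.347 with neutrophil markers and -0.0686 and -0.414 with skeletal muscle markers. It was 0.0899 and -0.415 with keratinocyte, -0.268 and 0.147 with adipocyte, and -0.289 and -0.0525 with erythrocyte markers.

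All 7 macrophage, 6 fibroblast and 3 leukocyte markers were above 0 in every tumor, and their sums ranged from 268 to 1466 CPM (macrophage) and from 832 to 9267 CPM (fibroblast) in the time course, and from 135 to 1467 CPM and from 370 to 7559 CPM at day 7. At day 7 the mean also moved with the total count (r = 0.632, rho = 0.476) and against the sensory receptor counts (r = -0.475, rho = -0.377). In the time course r was -0.119 with the total count and 0.143 with the sensory receptor counts. The part of these cells and of depth in the levels of the 10 genes was not tested.

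**Figure D5:**
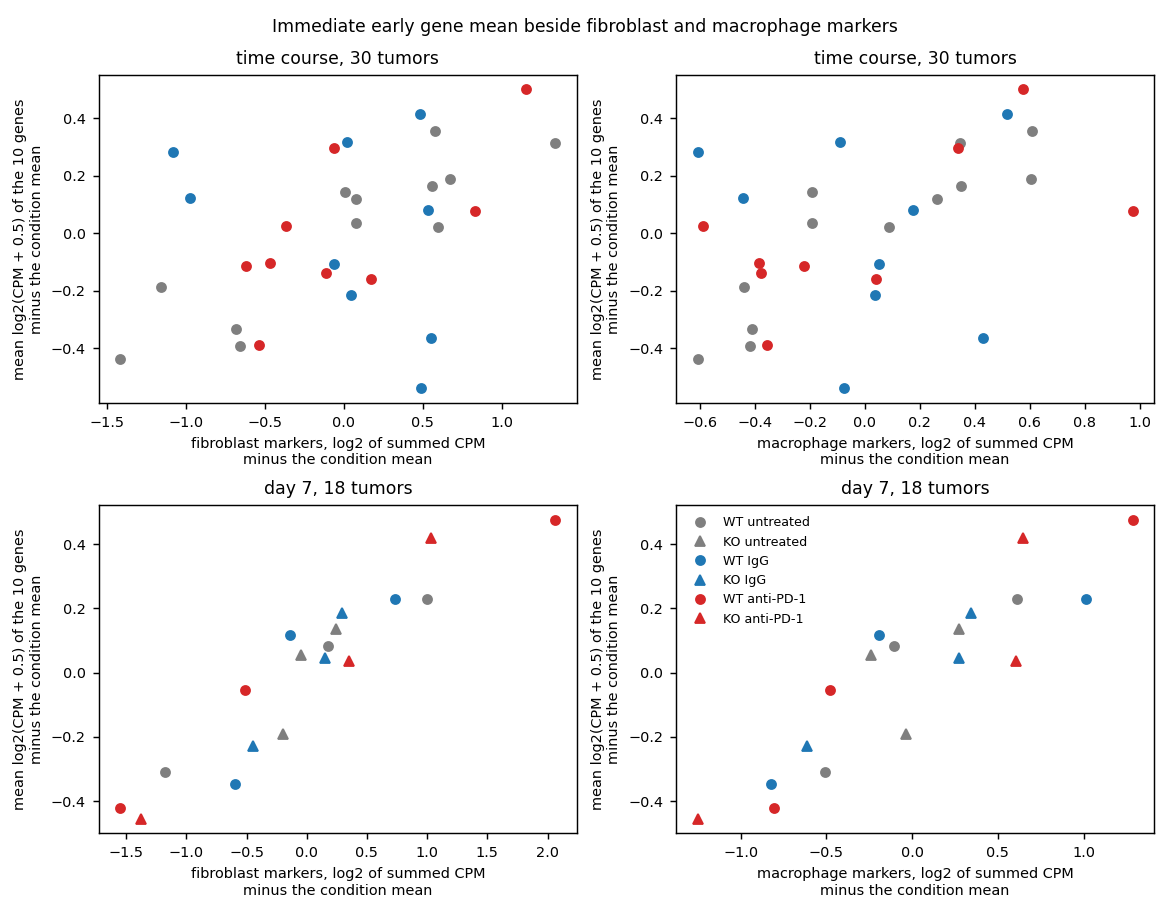
Mean log2(CPM + 0.5) of the 10 genes in each tumor (vertical) beside the log2 of summed fibroblast (left) and macrophage (right) markers, both after subtraction of the condition mean, for 30 time-course tumors (top) and 18 day 7 tumors (bottom). At day 7 the points run along a rising line (r = 0.937 and 0.898), and in the time course they scatter more (r = 0.446 and 0.490).

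The genes of the whole table that were most like the mean of the 10 over the 30 time-course tumors, among 14785 other genes of at least 1 CPM in both experiments, were Tagln2 (r = 0.897, and 0.848 at day 7), Nab2 (0.859 and 0.642), Zc3h12a (0.852 and 0.601), Basp1 (0.844 and 0.863) and Cebpb (0.841 and 0.728). Dennd4b, Fosl2, Pdlim7, Prdx5 and Smurf1 followed, with r from 0.823 to 0.840 in the time course and from 0.691 to 0.901 at day 7. Fosl2 is a further AP-1 gene, and Nab2 encodes a corepressor of EGR proteins. Over all these genes the median r was 0.00158 in the time course and 0.153 at day 7, and the 95th percentile 0.565 and 0.754.

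Of 45 further immediate early genes, 43 had at least 1 CPM. Their median r with the mean of the 10 was 0.566 in the time course, with 42 above 0, and 0.715 at day 7, with 40 above 0. Jund, an AP-1 subunit, had r = 0.821 and 0.855, and Dusp5, a phosphatase of ERK, 0.823 and 0.854. Ier3 was highest at day 7 (r = 0.921, and 0.509 in the time course), while Nr4a2, a receptor of the Nur77 family, had r = 0.379 and -0.408. None of the 45 passed in any of the 22 comparisons with edgeR. Their median log2 fold change at day 3 against untreated tumors was 0.25 for anti-PD-1, with 40 of 45 above 0, and 0.22 for IgG, with 36 of 45 above 0, beside -0.02 and -0.03 over all genes. At day 7 it was 0.24 in KO mice for anti-PD-1 against untreated, with 35 of 45 above 0, beside -0.44 over all genes. In WT mice it was -0.38 for anti-PD-1 against IgG, with 5 of 45 above 0, beside 0.68 over all genes. Both day 7 comparisons use sensory-rich libraries, which are 2 of the 3 WT anti-PD-1 tumors and replicate 1 of untreated KO mice. No value of the 45 genes is given without these libraries. For the 10 genes the median of the WT comparison turned from -0.26 to 0.20 without them. The 45 genes did not follow the 10 in every comparison. In untreated tumors at 6 h against 0 h the median of the 45 was -0.15, with 21 above 0. That of the 10 genes, Dusp1 included, was 0.22.

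The 25 genes upstream of the class (ERK pathway, SRF and CREB families) had no call in any comparison. At day 7 their median log2 fold change in KO mice was 0.16 for anti-PD-1 against untreated, beside -0.44 over all genes. It was 0.25 for KO against WT after anti-PD-1, with 23 of 25 above 0, beside -0.91. In the interaction it was 0.27, with 22 of 25 above 0, beside -0.47. These comparisons use the sensory-rich libraries, and no value of the 25 genes is given without them. The median r of the 25 genes with the mean of the 10 was -0.201 in the time course, where 8 were above 0, and 0.438 at day 7, where 24 were above 0. Srf, whose product binds the CArG box, was the highest in the time course (r = 0.680). The 15 AU-rich cytokine genes, a class of mRNA that tristetraprolin binds, had no call either, and the 6 of them with at least 1 CPM had a median r of 0.397 and 0.635, led by the chemokine gene Ccl2 (0.702 and 0.797). In the day 7 comparisons given for the upstream genes, the median log2 fold changes of the 15 were -0.68, -0.57 and -0.61, in that order. Of 13 heat shock genes only Hspe1, a mitochondrial chaperonin, was called. It was lower after IgG than in untreated KO tumors (log2 fold change -1.66, SE 0.28, edgeR adjusted p = 0.0218), where 0.188% of all genes were called. It was higher in untreated KO than in untreated WT tumors (1.73, SE 0.28, edgeR adjusted p = 0.00821), where 0.587% were called. These comparisons share the untreated KO tumors, among them the sensory-rich replicate 1, and no value of Hspe1 is given without it. The heat shock list had a median r of -0.450 in the time course and 0.247 at day 7. Its median log2 fold changes in the day 7 comparisons given for the upstream genes were -0.09, 0.23 and 0.14, in that order.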

How the data were processed

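Total RNA of whole tumors was made into strand-specific libraries and sequenced on an Illumina NovaSeq. According to their methods, the authors removed adapters (cutadapt 1.8.1), aligned reads to mm10 (STAR 2.7.7a), estimated counts per gene of GENCODE vM21 (RSEM 1.3.0) and tested with DESeq2. The deposited table holds these as whole-number counts without normalization, and its name refers to another counting program. The values do not show which was used. All 55450 identifiers matched vM21.

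The 2 experiments were analysed separately in edgeR 4.0.16 (R 4.3.3): TMM normalization, filterByExpr with a minimum count of 10 (26848 and 30837 genes kept), 1 coefficient per condition, the quasi-likelihood F-test, and Benjamini-Hochberg adjustment over all genes with a threshold of 0.05. SE is the log2 fold change divided by the root of F. Levels are counts scaled by TMM to 1000000 per library (CPM). The fits were also run on simulated data with planted changes larger than any log2 fold change given here for the 10 genes. That run does not show how often changes of the size seen here would be found.

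Correlations used log2(CPM + 0.5) less the condition mean, which leaves differences within conditions. Groups that do not overlap are those in which every CPM of 1 group exceeds every CPM of the other. Promoters came from RefSeq tables for GRCm38.p6. Alternatives were DESeq2 size factors, no filter, only the groups compared, DESeq2 1.42.0, a replicate block, a covariate for counts on sensory receptor genes, leaving out the 3 libraries with most of them, and each library left out.

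The members, gene lists, comparisons and the use of sensory receptor genes were chosen with earlier results of these data known. Named in each comparison were genes that passed and the one with the largest log2 fold change, and further genes were chosen after their values were seen, among them those without overlap. Of other genes, called members of each list and the 10 most like the mean of the 10 were named, with a few others from the lists. No pair of libraries of a group was a copy, as the chi-square per gene between them was 12.0 to 322 in the time course and 18.4 to 100 at day 7. The labels do not say that libraries are other than 1 tumor each, and p-values measure the spread between tumors.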

Additional observations from a re-analysis of the deposited data

How the results depend on the processing

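No gene of the 10 passed in any comparison or test among conditions with edgeR, and this was the same with DESeq2 size factors, with only the groups compared, with the sensory receptor covariate and without the 3 sensory-rich libraries. Calls appeared without the filter on low counts (1 gene among the time-course conditions outside 6 h, 1 in WT anti-PD-1 against IgG at day 7, 1 in KO anti-PD-1 against untreated, 2 in KO against WT after anti-PD-1 and 2 among the day 7 conditions) and with DESeq2 (1 in each of these apart from WT anti-PD-1 against IgG, where it called 0). With each library left out the count of calls stayed at 0 except in WT anti-PD-1 against IgG and in KO against WT after anti-PD-1, where it ranged from 0 to 1, the calls arising without WT anti-PD-1 replicate 2. The cause of these changes was not tested.

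Of the named genes, Nr4a1 in KO against WT after anti-PD-1 reversed to -0.0017 with the sensory receptor covariate. Over libraries left out, Fosb ranged from -1.38 to 0.0792 for IgG against untreated at 6 h, from -0.73 to 1.42 for anti-PD-1 and from -0.28 to 1.06 for IgG against untreated at day 3, and from -0.93 to 0.0496 for KO against WT after IgG at day 7, and Egr1 ranged from -1.56 to 0.21 for untreated day 3 against 0 h. The median of the 10 genes at 6 h between anti-PD-1 and untreated ranged from -0.49 to -0.04 over libraries left out. The median pair correlation ranged from 0.316 to 0.420 and, at day 7, from 0.537 to 0.648 over libraries left out, alternatives chosen after seeing the data.

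Same-numbered replicates of different conditions did not deviate together (median r -0.0265 over 65 pairs in the time course and -0.0188 over 36 pairs at day 7), so the numbers were not taken as pairs, and with a replicate block the count of calls among the 10 genes was 0 in every comparison. DESeq2 size factors moved the level of all genes between groups by at most 0.09 on the log2 scale. With 3 tumors a group the precision was limited most for Fosb, whose 95% interval at 6 h between anti-PD-1 and IgG ran from -1.48 to 1.63 on the log2 scale.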
